A study of Mus musculus with 37 samples.

Results

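The duodenal lymph node was compared with the liver and celiac lymph nodes of the upper abdomen, with 3 libraries from each site. These 9 libraries were taken by their site label from a series of 37, which also covers 8 other lymph node sites, the spleen and 1 isotype control from jejunal node. The shallowest of the 9 held 221911 counts and the deepest 917912. All mice, those of the duodenal, liver and celiac samples alike, were labelled CD169 Cre KI/KI and Rpl22HA homozygous, and the labels name no treatment, age or sex. In RiboTag mice, Cre recombinase turns on an allele of Rpl22, a protein of the large ribosomal subunit, that bears a haemagglutinin (HA) tag. Tagged ribosomes are recovered with an anti-HA antibody, together with their bound mRNA. The Cre here was a knock-in at CD169, and the submitters describe the tagged allele as activated in every tissue. The libraries were made from polyadenylated RNA and are labelled as CD169 macrophages, so a gene's level can depend both on how many cells carried the tag and on how much RNA each gave, which cannot be told apart. The labels do not say whether the 3 libraries of a site came from separate animals or from pools, so p-values measure the spread between these libraries, which may be technical.

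CD169, the product of Siglec1, is a sialic acid receptor on the macrophages that line the subcapsular and medullary sinuses of lymph nodes, where they take up particles and pathogens from arriving lymph. Nodes of the upper abdomen receive lymph from the duodenum, pancreas, stomach and liver, and organs that lie next to each other can share a node. The series title names the identity of small-intestinal nodes as its subject. The comparison here asks how far the duodenal node differs from 2 neighbouring nodes sequenced to a like depth.

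No gene passed the test between the duodenal libraries and the liver and celiac libraries. Of 1038 genes with enough counts, 0 (0%) had an adjusted p under 0.05 in edgeR's quasi-likelihood test with Benjamini-Hochberg adjustment, and the smallest adjusted p was 0.971. At an unadjusted p under 0.05 there were 47 genes (4.53%), 16 with a higher and 31 with a lower duodenal mean. Over all genes tested the median log2 fold change was 0.05. The following values are therefore a description of these libraries and not of changes between nodes.

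The libraries were shallow, and 3 features held most of their counts. The 3 duodenal libraries held 385071, 221911 and 349238 counts, the liver libraries 234823, 479871 and 420706, and the celiac libraries 296127, 272210 and 917912. The mean was 318700 ± 85750 (SD, n = 3) in duodenal and 436900 ± 253500 (SD, n = 6) in liver and celiac libraries (exact permutation test, two-sided, p = 0.571). Gm19220, Rn18s-rs5 and Lars2, grouped here as ribosomal sequence, made up 74.8% to 85.1% of duodenal and 74.3% to 85.6% of liver and celiac counts. The exact permutation p was 0.774. This grouping rests on gene symbols, Gm19220 is a predicted gene, and no sequence was checked. All other genes shared 42654 to 164780 counts per library. Genes with 10 or more counts numbered 692, 795 and 1225 in duodenal, 950, 1148 and 1026 in liver, and 725, 814 and 2075 in celiac libraries (exact permutation p = 0.595). A list of 13 mitochondrially encoded genes took 0.00338% to 0.0114% of duodenal and 0.00436% to 0.0448% of liver and celiac counts. The exact permutation p was 0.726, and mt-Rnr2, also mitochondrially encoded, is not in the list. It alone had 78 to 849 counts per library. With 3 libraries against 6, an exact test has 84 splits and cannot go below p = 0.0238. In none of these measures did the 2 sides separate.

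**Figure D1:**
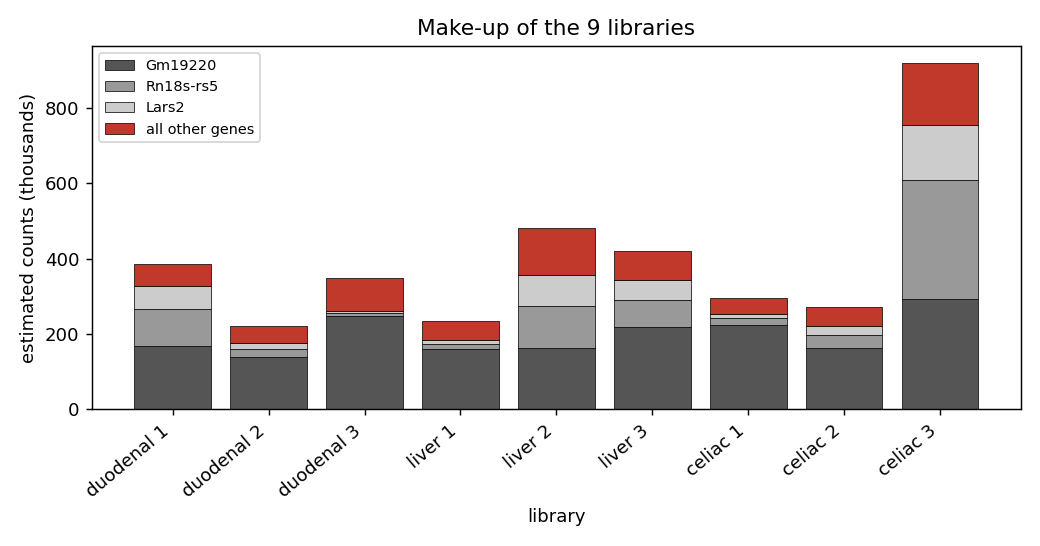
Estimated counts in each of the 9 libraries, stacked by feature: the 3 features grouped as ribosomal sequence in grey and all other genes in red. Gm19220 ranged from 138932 to 292438 counts while Rn18s-rs5 ranged from 10140 to 315281, and celiac library 3 was the deepest.

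The defining markers of the labelled cell type had few or no counts. Siglec1, whose locus drives the Cre, had 0 counts in all 9 libraries, and so did Adgre1, which encodes the macrophage marker F4/80. The labels give the Cre knock-in as KI/KI, and whether it changes the Siglec1 transcript was not tested. Cd68, a lysosomal glycoprotein of macrophages, had 0 counts in 7 libraries and 1 and 2 counts in celiac libraries 2 and 3. Csf1r, through which CSF1 keeps macrophages alive, had 0, 1 and 1 counts in duodenal, 4, 0 and 0 in liver, and 0, 0 and 15 in celiac libraries. The defining markers were thus at or near 0 on both sides of the comparison. In the 27 pull-downs of other sites, many of them far deeper, the median count of Siglec1 was also only 1. It was 3 for Adgre1, 7 for Cd68 and 63 for Csf1r. Rpl22, whose allele carries the tag, had 6, 5 and 7 counts in duodenal, 3, 3 and 3 in liver and 7, 6 and 16 in celiac libraries, too few to be tested. Of the 20 sinus and resident macrophage markers, 15 had at least 1 count and 3 had enough to be tested.

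Marco, a scavenger receptor of sinus macrophages, was the best covered of them. It held 12.7, 127 and 24.3 CPM in duodenal, 68.3, 51.4 and 57.5 in liver and 44.7, 92 and 121 in celiac libraries. CPM are counts per 1000000 of the counts in tested genes after scaling by edgeR's trimmed mean of M values (TMM), and 1 count is worth 1.87 to 4.47 CPM here. The duodenal values lay on both sides of the others, and the log2 fold change was -0.39 ± 0.66 (SE, edgeR adjusted p = 0.971). That sign depended on the scaling: with library totals alone it was 0.094. It also depended on duodenal library 1, without which it was 0.054. Lyz2 (lysozyme) and Ctss (cathepsin S) had log2 fold changes of -0.66 ± 0.70 and -0.32 ± 0.59. Both averages joined opposite signs: against liver alone Lyz2 stood at 0.64 and Ctss at 0.81, and against celiac alone at -1.96 and -1.45.

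The isotype control gives the background of the pull-down. It held 5002926 counts, 6.5% of them in the ribosomal features, so levels were set against it per 1000000 counts outside those features. On that scale the macrophage list summed to 81.4 in the isotype library and to 397 (liver library 2) up to 1681 (celiac library 3) in the 9 pull-downs. Marco stood at 18.2 in the isotype library and at 52.4 to 757 in the pull-downs, and all 9 were above it. Lyz2 was also above the isotype library in all 9. Csf1r was so in 4 and Cd68 in 2, and the pull-down median of both was 0. B cell markers went the other way, with 7035 in the isotype library and 610 to 1942 in the pull-downs. Malat1, a nuclear noncoding RNA, held 284600 in the isotype library and 4035 to 44770 in the pull-downs. Lists named for other cell types were also above the isotype library in all 9 pull-downs. Among them were erythroid genes with 10.3 against 105 to 648 and blood endothelium with 216 against 358 to 1243. Most blood endothelium counts were of 1 gene, Pecam1, with 462 over the 9 pull-downs and 976 of the 1011 in the isotype library. With 1 isotype library, from another node, these are values without a replicate check.

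Across the genes tested, the standard error of a log2 fold change had a median of 0.61. The median 95% interval reached 1.35 to either side, and 10% of genes had one wider than 2.17. The interval lay wholly within a log2 fold change of 1 in either direction for 44 of the 1038 genes and within 2 for 623. For the other genes the interval reached past a log2 fold change of 2 in at least 1 direction. An absolute log2 fold change over 1 was seen for 155 genes (14.9%), against 356 (34.3%) between liver and celiac libraries in the same model.

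**Figure D2:**
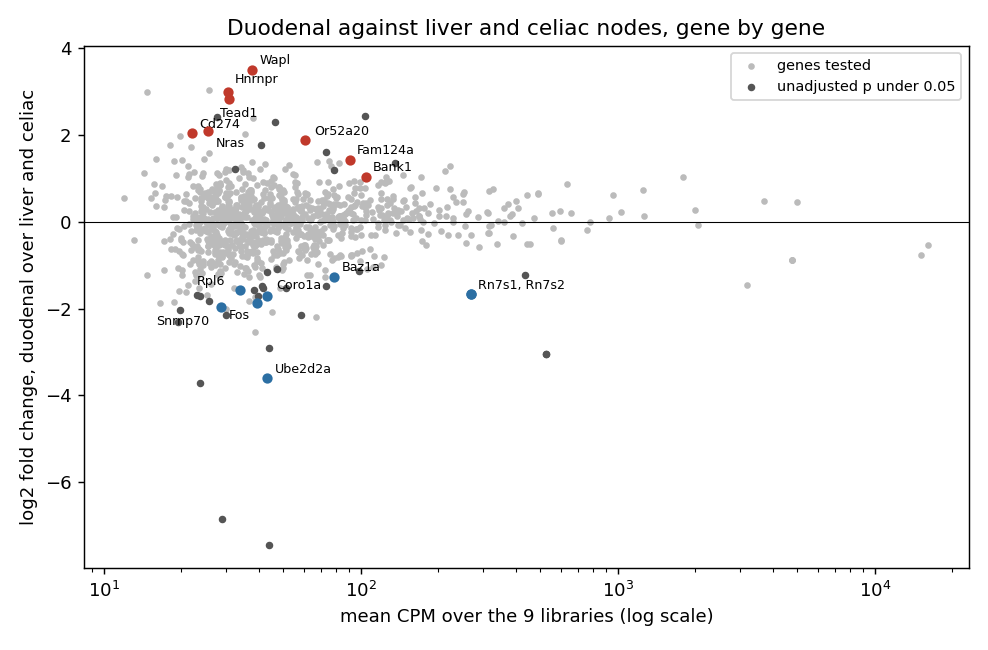
Log2 fold change of the duodenal mean over the mean of liver and celiac (vertical axis) against mean CPM over the 9 libraries (log axis) for 1034 genes; the 3 ribosomal features and Atxn2l, which had 0 counts in 6 libraries, are not drawn. Dark points had an unadjusted p under 0.05, and the 16 coloured genes had the smallest p in each direction; none passed after adjustment.

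Among named genes with the smallest p on the higher side, Wapl, which releases cohesin from chromatin, held 170, 32.8 and 24.3 CPM in duodenal libraries. It held 0, 0 and 2.61 in liver but 58.1, 49.8 and 2.12 in celiac libraries. Duodenal values were above every liver value and overlapped the celiac ones, with a log2 fold change of 3.51 ± 1.01 (edgeR unadjusted p = 0.00514, adjusted p = 0.971). Hnrnpr, an RNA-binding protein, held 102, 102 and 1.87 CPM in duodenal libraries and 0 to 42.2 in the others, so 1 duodenal library was among the low ones.

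Cd274 encodes PD-L1, the ligand that restrains T cells through PD-1. It was the steadiest of this set in the duodenal libraries, with 42.4, 36.4 and 41.1 CPM. Liver libraries held 23.9, 36.2 and 10.4 CPM and celiac libraries 0, 0 and 8.47. All 3 duodenal values lay above all 6 others, the nearest by less than 1 count in that library, since 36.4 stood against 36.2. The log2 fold change was 2.05 ± 0.76 (edgeR unadjusted p = 0.0209, adjusted p = 0.971), on 42 counts in the duodenal and 34 in the liver and celiac libraries.

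Nras, a small GTPase of the RAS family, held 123, 14.5 and 18.7 CPM in duodenal libraries against 5.23 to 30.7 in the others, and the high mean came from duodenal library 1. Tead1, a DNA-binding partner of the Hippo pathway, held 72, 113 and 1.87 CPM in duodenal libraries, and liver library 3 with 70.5 stood as high. Bank1, a scaffold protein of B cell receptor signalling, held 97.5, 98.2 and 251 CPM in duodenal, 95.6, 162 and 107 in liver and 31.3, 46 and 50.8 in celiac libraries. Duodenal and liver values of Bank1 overlapped, and the celiac ones lay below both. The olfactory receptor gene Or52a20 and Fam124a had log2 fold changes of 1.88 ± 0.75 and 1.43 ± 0.58, with liver library 2 at 97.1 and 200 CPM inside the duodenal ranges of 18.2 to 229 and 50.9 to 264.

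On the lower side the smallest p belonged to Rn7s1 and Rn7s2, copies of the 7SL RNA of the signal recognition particle, which guides ribosomes to the endoplasmic reticulum. Both carried the same counts in every library and count as 1 observation, since reads cannot be assigned between near-identical copies. They held 153, 72.8 and 74.8 CPM in duodenal, 130, 223 and 238 in liver and 398, 506 and 612 in celiac libraries. Duodenal library 1 exceeded liver library 1, and all celiac values were above both other sites. The log2 fold change was -1.67 ± 0.42 (edgeR unadjusted p = 0.00232, adjusted p = 0.971).

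Ube2d2a, a ubiquitin-conjugating enzyme, had 3, 1 and 0 counts in duodenal, 2, 20 and 26 in liver and 12, 24 and 54 in celiac libraries, with a log2 fold change of -3.60 ± 1.01 (edgeR unadjusted p = 0.00439, adjusted p = 0.971). Liver library 1 was the 1 library of the other side within the duodenal range of CPM. When all 36 pull-down libraries shared the fit, it passed at a lower duodenal level (adjusted p = 0.0256). Snrnp70, the 70K protein of the U1 splicing particle, held 4.24, 14.5 and 9.35 CPM in duodenal, 54.6, 26.6 and 26.1 in liver and 40.2, 38.3 and 42.3 in celiac libraries. All duodenal values were below all others, on 10 duodenal counts in all (-1.96 ± 0.59, edgeR unadjusted p = 0.00688).

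Baz1a, a subunit of a chromatin-remodelling complex, was likewise below all others, with 42.4, 50.9 and 28.1 CPM in duodenal and 73.2 to 146 in liver and celiac libraries (-1.26 ± 0.41). Rpl6, a protein of the large ribosomal subunit, held 17, 18.2 and 7.48 CPM in duodenal and 26.6 to 69 in the others (-1.57 ± 0.52). Fos, an immediate early transcription factor, held 12.7, 18.2 and 9.35 CPM in duodenal libraries and 13.1 to 125 in the others, so liver library 3 overlapped them (-1.86 ± 0.66). Coro1a, an actin-binding protein of leukocytes, held 4.24, 29.1 and 13.1 CPM in duodenal and 20.9 to 118 in the others (-1.70 ± 0.61). Each of these had an adjusted p of 0.971.

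**Figure D3:**
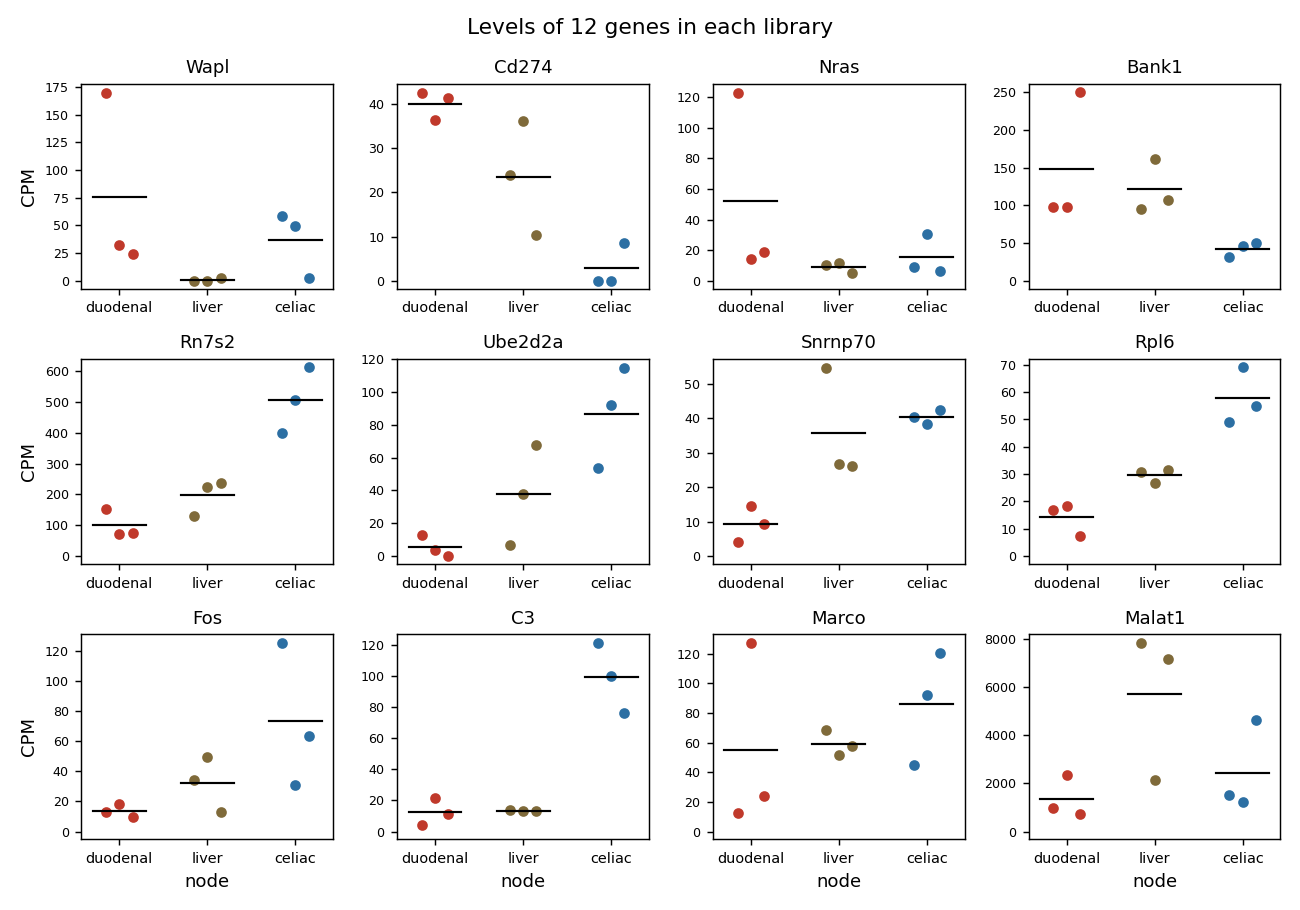
CPM of 12 genes in each library, with points for the 3 libraries per node and a black bar for their mean; each panel has its own linear axis. Celiac libraries carried the highest means of Rn7s2, Ube2d2a, Snrnp70, Rpl6, Fos, C3 and Marco. The duodenal points stood apart from all others in the panels of Snrnp70 and Rpl6. For Cd274 the lowest duodenal point (36.4 CPM) was almost level with the highest liver point (36.2 CPM).

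Counted without a test, 5 genes (0.482%) had all 3 duodenal values above all 6 others and 14 (1.35%) had them below. Were the 9 libraries exchangeable, a gene would fall in each set with a probability of at most 1 in 84. The genes are therefore listed as values and not as changes. Above were Cd274, the DNA topoisomerase Top1, the Mediator subunit Med19 and the predicted genes Gm26947 and Gm47967. Below were Snrnp70, Baz1a, Rpl6, Rps14, Rps6, Fau, Npm1 (a nucleolar chaperone), Sec61a1 (the channel of the endoplasmic reticulum translocon), Ireb2 (an iron-responsive RNA-binding protein), Lpl, Zbtb4, Zmat1, Gm7536 and Gm43766. The lower set included 4 of the ribosomal kind, since Fau encodes a ribosomal protein fused to a ubiquitin-like peptide. Among all 1038 genes tested, 36 were on the cytosolic ribosomal protein list. Zbtb4, a zinc finger repressor that binds methylated DNA, had 0 counts in all duodenal libraries, 26, 1 and 1 in liver and 9, 28 and 9 in celiac libraries. Against a floor of 3 counts over the duodenal group it was at least 11.9-fold lower, with an unadjusted p of 0.0103. It passed with no filter on low counts (adjusted p = 0.0404) and in the fit of all 36 libraries (adjusted p = 0.0206).

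Cytosolic ribosomal protein genes, the transcripts of the translation machinery itself, formed the list with the most measured members. Of 83 genes, 36 had enough counts, none passed, and 30 had a lower and 6 a higher duodenal mean. The median log2 fold change was -0.69, against 0.05 over all genes tested, with a range from -1.62 to 0.50. Rplp1, a stalk protein, held 84.8, 94.6 and 37.4 CPM in duodenal and 44.7 to 222 in liver and celiac libraries. Rpsa, a small-subunit protein, held 59.3, 98.2 and 29.9 CPM against 58.1 to 161. Members at higher duodenal means included Rps4x at 0.50 ± 0.54 and Rpl41 at 0.48 ± 0.87. The summed level of the list overlapped between the sides, with 1167 to 2474 CPM in duodenal, 1359 to 2797 in liver and 2069 to 4293 in celiac libraries. The median stayed below 0 in all 20 alternatives, from -1.13 to -0.31. Against liver alone 26 of the 36 were lower, with a median of -0.30, and against celiac alone 34 were, with a median of -0.96. Liver against celiac also had 34 lower, with a median of -0.66.

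General transcripts of the cytoskeleton and translation had 10 of 11 tested members lower and a median of -0.55. This came from the celiac side: 11 of 11 were lower against celiac, with a median of -1.15, and 6 of 11 against liver, with a median of -0.10. Liver libraries were likewise lower than celiac ones for 11 of 11, with a median of -0.97. Actb (beta actin) held 165, 342 and 167 CPM in duodenal, 560, 373 and 285 in liver and 295, 859 and 874 in celiac libraries (-1.22 ± 0.49, edgeR unadjusted p = 0.03). Duodenal library 2 thus overlapped both liver and celiac values. The heat shock and protein folding list ran opposite ways against the other sites, with 6 of 6 members lower against liver (median -0.36) and 2 of 6 lower against celiac (median 0.61). Against both together it had 3 members on each side and a median of 0.09, and Hsp90ab1, its most abundant member, at 0.18 ± 0.37.

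Lysosomal genes had 4 tested members of 21 listed, among them Ctss, which the macrophage and MHC class II lists also hold, all 4 with lower duodenal means, and a median of -1.37. Against celiac alone the median was -2.01, with 4 of 4 lower, and against liver alone -0.59, with 3 of 4 lower. Liver against celiac had a median of -1.97. Psap, which encodes the activators of lysosomal lipid breakdown, held 46.6, 91 and 52.4 CPM in duodenal, 123, 105 and 65.3 in liver and 76, 157 and 290 in celiac libraries (-1.05 ± 0.50). Ctsb (cathepsin B) held 12.7, 18.2 and 5.61 CPM in duodenal libraries, and its high mean in the others came mostly from celiac library 3 with 188 CPM. Without duodenal library 3 and liver library 2 the list's median was -1.10, and without celiac library 3 it was -0.68. The summed list overlapped at 148 to 295 CPM in duodenal, 215 to 277 in liver and 291 to 997 in celiac libraries.

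MHC class II genes had 3 tested members, which were all 3 higher in duodenal than in liver libraries (median 0.81) and all 3 lower than in celiac libraries (median -1.45). Between liver and celiac the median was -2.25. Against both sites together the median was -0.32, which was 0.29 without duodenal library 3 and liver library 2 and -1.21 without duodenal library 2. H2-Ab1, a class II beta chain, held 12.7, 76.4 and 7.48 CPM in duodenal libraries, inside the range of the others (6.83 to 127). The 3 tested B cell genes had no common sign, with Bank1 at 1.05 ± 0.42, Ebf1, a transcription factor of early B cells, at 0.54 ± 0.60 and Pax5, which holds B cell identity, at -2.14 ± 0.83. Pax5 had 2, 10 and 5 counts in duodenal, 21, 49 and 13 in liver and 9, 7 and 98 in celiac libraries. In the isotype library Pax5 had 11241 counts and Bank1 17139.

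Adipocyte genes, a marker list for the fat around nodes, had 4 tested members, 3 of them lower, and a median of -0.60, with -0.05 against liver and -0.61 against celiac alone. Lpl, which releases fatty acids from circulating triglyceride, held 33.9, 29.1 and 20.6 CPM in duodenal and 40.2, 34.5 and 38.1 in celiac libraries. Liver libraries held 113, 45.7 and 306 CPM, so the distance from the duodenal values came mostly from liver libraries 1 and 3. The log2 fold change of Lpl was -2.48 against liver and -0.45 against celiac alone. Fabp4, a fatty acid carrier of the same cells, was level at 0.03 ± 0.55. Lpl stood at 1055 in the isotype library per 1000000 counts outside ribosomal features, against 109 to 1520 in the pull-downs.

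Nuclear noncoding RNAs had 3 of 4 tested members lower and a median of -0.70, which turned to 0.26 without liver library 1. Against liver 4 of 4 were lower, with a median of -0.73, and against celiac 2 of 4, with a median of -0.30. Malat1 held 979, 2361 and 739 CPM in duodenal, 7844, 2128 and 7156 in liver and 1501, 1227 and 4630 in celiac libraries (-1.46 ± 0.77, edgeR unadjusted p = 0.0853). Node stroma and blood endothelium had 1 tested member each. Col1a2, a collagen of fibroblasts, stood at 1.09 ± 0.76, with 55.1, 21.8 and 56.1 CPM in duodenal and 3.83 to 47.6 in the others. Lepr, the leptin receptor of stromal cells, had 1, 17 and 0 counts in duodenal, 34, 1 and 0 in liver and 0 in all celiac libraries, too few to be tested. Hoxb4 was the tested gene of the Hox cluster, at 1.30 ± 0.71, and its 2 highest values were in duodenal library 3 with 262 CPM and liver library 2 with 150.

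**Figure D4:**
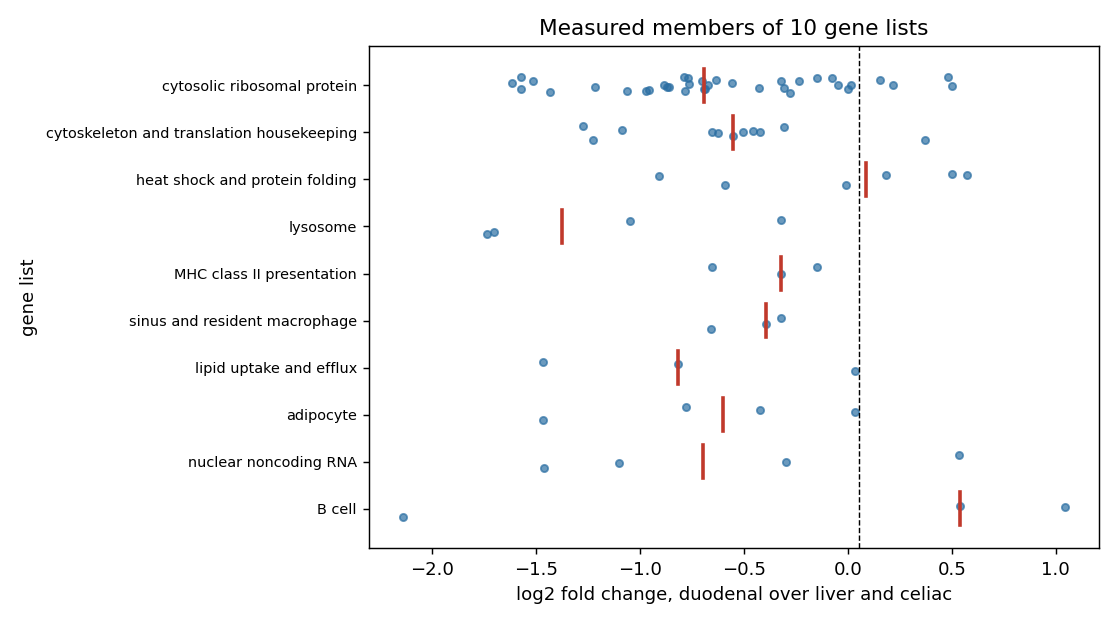
Log2 fold change (duodenal over liver and celiac) of the tested members of 10 gene lists, 1 point per gene, with the list's median as a red bar and the median of all genes tested (0.05) as a dashed line. Points of the ribosomal protein list spread from -1.62 to 0.50, and no gene shown passed the test.

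Set against each site alone, the duodenal libraries also gave 0 genes (0%) past an adjusted p of 0.05 in the same model. Against liver, 26 genes (2.5%) had an unadjusted p under 0.05, 13 in each direction, and the smallest adjusted p was 1. Against celiac there were 99 (9.54%), 42 higher and 57 lower, and the smallest adjusted p was 0.123. Between the liver and celiac libraries, which form the other side of the main comparison, 0 genes (0%) passed, 122 (11.8%) had an unadjusted p under 0.05, and the smallest adjusted p was 0.233. These comparisons share libraries, so their values are given side by side and not as independent results. Whether the duodenal difference from celiac exceeds that from liver is the liver against celiac contrast itself.

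Several genes were set apart by the celiac libraries. C3, the central component of complement, held 121, 99.7 and 76.2 CPM in celiac against 4.24, 21.8 and 11.2 in duodenal and 13.7, 13.3 and 13.1 in liver libraries. All celiac values lay above all others, with a log2 fold change of -2.94 for duodenal against celiac and -2.85 for liver against celiac. Neither passed in edgeR (unadjusted p = 0.000475 and 0.000517), and both passed in DESeq2 (adjusted p = 0.0101 and 0.0155). Atxn2l, an RNA-binding protein of stress granules, had 31, 14 and 27 counts in celiac libraries and 0 in all 6 others. Against a floor of 3 counts over each group, which covers counting error alone, its pooled level was at least 26.2-fold lower in duodenal than in celiac libraries. In liver libraries it was at least 30.1-fold lower. The edgeR adjusted p was 0.123 and 0.233, and DESeq2 called Atxn2l in both (adjusted p = 0.000948 and 0.00113). These genes were named after their values were seen.

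Of 41 gene lists, complement and intestinal epithelium were those whose summed level, per 1000000 counts outside ribosomal features, was higher in all 3 celiac libraries than in the 6 others. For no list did the 3 duodenal or the 3 liver libraries stand all above or all below the rest. In TMM-scaled CPM, complement genes summed to 179, 238 and 326 CPM in celiac, 48.6 to 91 in duodenal and 78.5 to 83.7 in liver libraries. Intestinal epithelial genes summed to 67, 353 and 61.4 CPM in celiac libraries, 10.9 to 16.8 in duodenal and 7.84 to 10.2 in liver libraries. In counts these were 15, 92 and 29 in celiac, 3, 3 and 9 in duodenal and 3, 5 and 3 in liver libraries. In celiac library 1, 12 of the 15 counts were Zg16, a secreted lectin that the pancreatic acinar list also holds, and Fabp2, Fabp1 and Sis were at 0. In celiac library 2 the fatty acid carriers Fabp2 and Fabp1 had 32 and 14 counts and the sucrase gene Sis 12, where the 3 duodenal libraries together had 0, 1 and 1. The same library held 122 counts of the mitochondrial list against 11 to 40 in the other 8. For mt-Rnr2, outside that list, it held 86 counts, against 578 in duodenal library 3 and 849 in liver library 2. The part of these counts in the comparison was not tested.

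No duodenal library had its closest partner at its own site, whereas the celiac libraries and liver libraries 1 and 3 did. Over the genes tested, Pearson's r of log2 CPM across genes was 0.588 to 0.766 (median 0.678) for the 9 pairs within a site and 0.506 to 0.855 (median 0.677) for the 27 pairs between sites. These values are across genes, which are not independent replicates. Every duodenal library had its closest partner among the liver libraries, library 1 with liver 3 (0.722), library 2 with liver 1 (0.751) and library 3 with liver 2 (0.855). The last pair was the closest of all 36. Each celiac library was closest to another celiac library, and liver libraries 1 and 3 to each other (0.766), so 5 of the 9 had their closest partner at their own site. The margin was small for celiac library 1, with 0.678 to celiac library 2, 0.67 to liver library 1 and 0.66 to celiac library 3. Pairs of duodenal libraries had r of 0.588, 0.671 and 0.688.

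**Figure D5:**
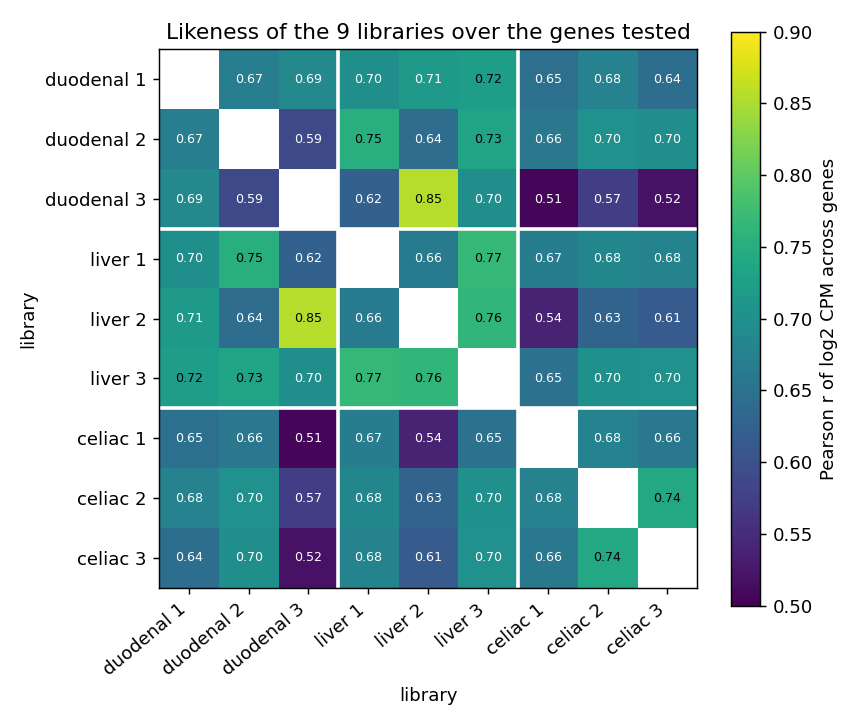
Pearson's r of log2 CPM across 1038 genes for every pair of the 9 libraries, with white lines between nodes and the diagonal left blank. Duodenal library 3 and liver library 2 had the highest value (0.855), and duodenal library 3 with the celiac libraries included the lowest (0.506).

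Duodenal library 3 and liver library 2 shared a set of features that were several times higher in them than in the other 7. Luc7l3, a splicing factor, had 1745 and 1715 counts in this pair and 56 to 478 in the others. Rbm25, another splicing factor, had 2812 and 2160 against 118 to 702, and Rhox8, a reproductive homeobox gene, had 2127 and 3001 against 153 to 513. In the isotype library these 3 genes had 69319, 97567 and 24346 counts. The pair straddles the comparison, and log2 fold changes were 0.74 ± 0.68 for Luc7l3, 1.05 ± 0.66 for Rbm25 and 0.28 ± 0.73 for Rhox8. Other features high in the pair had a smaller p. Fam124a, with 141 and 105 counts in the pair and 4 to 27 in the others, stood at 1.43 ± 0.58 (edgeR unadjusted p = 0.0304). The predicted gene Gm26704, with 107 and 86 counts against 5 to 23, stood at 1.61 ± 0.58 (edgeR unadjusted p = 0.0173). Neither passed after adjustment (edgeR adjusted p = 0.971). Without the pair 0 of 1031 genes passed and 43 had an unadjusted p under 0.05. The labels give no batch, date or run for any library.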

How the data were processed

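Per the submitters' processing notes, the authors used kallisto, and the estimated counts they deposited cover 56351 genes in 37 libraries. Those notes also name edgeR and limma, with no role or version, and the builds GRCm39 and mm10 together, so no coordinates are given. The step from transcripts to genes and the use of strand are not given in the sources used here, and near-identical or overlapping genes are uncertain. Rounding to whole counts came first, since 98.6% of the non-zero values in the 9 libraries differed from a whole number by more than 0.001.

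The 3 duodenal, 3 liver and 3 celiac libraries were fitted with 1 mean per site in edgeR 4.0.16 (R 4.3.3): filterByExpr (minimum count 10, minimum total 15) left 1038 genes, TMM scaling, and a robust quasi-likelihood fit tested against an adjusted p of 0.05. Of the genes tested 314 (30.2%) were predicted genes or pseudogenes by symbol. The main contrast is the duodenal mean minus the average of the liver and celiac means. The ± after a log2 fold change is its standard error, derived from the F statistic, and intervals are at 95%. A fold against a group at 0 is a bound against 3 counts over that group, and 3 counts equal 5.61 to 13.4 CPM in a library. Floors account for counting error alone, because amplified reads are not separate molecules. All 36 pairs of libraries differed beyond counting error (chi-square per degree of freedom 7.51 to 107). Single values were compared by exact permutation. DESeq2 1.42.0 and limma 3.58.1 (voom) served as alternatives, and scripts were tested on simulated data. Genes without a symbol, 211 in all, held 0.0164% to 0.0513% of a library's counts.

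Named genes are 6 check genes, the 8 per direction with the smallest p among genes with 10 or more counts in at least 2 duodenal or 3 liver and celiac libraries (used because none passed), leaving out predicted genes, pseudogenes and immunoglobulin or T cell receptor segments, and up to 4 members of a described list by mean CPM. The comparison, the 42 gene lists and these rules were chosen with earlier results of these data known. The isotype library and the other 27 pull-downs entered no test except the alternative of all 36.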

Additional observations from a re-analysis of the deposited data

Results flagged for a closer look

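In the 6 liver and celiac libraries, 33 measures were checked for a highest or lowest library whose gap to its neighbour exceeds 0.625 of the whole range, and 9 met this. For 6 independent values from a single normal population this happens about 1 time in 20. The measures here join liver and celiac libraries, overlap each other and include genes picked by p, so their rate is not known. The 3 duodenal libraries are too few for the check.

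Celiac library 3 was the highest for its total count (917900, against 234800 to 479900 in the other 5), its genes with 10 or more counts (2075 against 725 to 1148) and the summed level of sinus and resident macrophage markers (586 CPM against 93.2 to 245). The duodenal libraries held 80.4 to 236 CPM of that list. Most of the sum in celiac library 3 was Lyz2, with 262 CPM, and Marco, with 121 CPM. The distance of this library depended on the scaling, and its TMM factor was 0.544. On the scale outside ribosomal features used for the isotype control, the list summed to 1681 in celiac library 3. On that scale it was 1267 in celiac library 2, 1111 in liver library 1 and 1405 in duodenal library 2.

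Celiac library 2 was the highest for the share of the 13 listed mitochondrially encoded genes (0.0448% against 0.00436% to 0.00851%). It was also the highest for Hnrnpr (42.2 CPM against 0 to 12.7) and Nras (30.7 CPM against 5.23 to 11.4). Of its 122 counts of the mitochondrial list 55 were mt-Co3, a subunit of cytochrome c oxidase. For mt-Rnr2, outside the list, liver library 2 had 849 counts and celiac library 2 had 86.

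Liver library 2 was the highest for Or52a20 (97.1 CPM against 4.47 to 28.7) and Fam124a (200 CPM, 199.8 before rounding, against 17.9 to 70.5). Liver library 3 was the highest for Tead1 (70.5 CPM against 0 to 7.67). In the duodenal libraries these 3 genes ranged from 18.2 to 229, from 50.9 to 264 and from 1.87 to 113 CPM.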

How the results depend on the processing

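The count of 0 genes for duodenal against liver and celiac nodes stood under 18 of 20 alternatives: other scalings, a stricter filter, ribosomal features removed, liver and celiac pooled, DESeq2 (49 genes at an unadjusted p under 0.05), voom (40), each library left out (0 to 0 called, 47 to 108 unadjusted), and, chosen after seeing the data, the pair of duodenal 3 and liver 2 left out. With no filter on low counts 7 of 24256 genes passed (4 higher, 3 lower), and with all 36 pull-downs in the fit 14 of 16294 (12 higher, 2 lower). Some of these had nearly all their counts in 1 library, such as Pm20d1 with 0, 143 and 2 duodenal counts. Others, such as Atp8b2 (8, 13 and 6 duodenal counts, 1 elsewhere) and Usp2 (4, 9 and 6, and 0 elsewhere), had counts in all 3. With no filter 10 genes passed for duodenal against liver, 19 for duodenal against celiac and 28 for liver against celiac. With all 36 libraries these were 0, 20 and 12, and with DESeq2 0, 8 and 3. DESeq2's 8 were all lower in duodenal libraries, among them C3, Atxn2l, Zbtb4 and Ube2d2a. The rest were Rn7s1 with Rn7s2 and Gm12895 with Gm12896. Each of these pairs carried the same counts in every library and counts as 1 observation. Gm12895 had 9, 65 and 1736 counts in celiac libraries. The cause of the differences between settings was not tested.

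Library totals without TMM moved the median of all genes to 0.36. Marco then turned from -0.39 to 0.094, and leaving out 1 library gave -1.89 to 0.054. Of 364 values for 19 named genes under the alternatives, 359 kept sign and side of the threshold, those 2 of Marco changed sign, and 3 passed (Ube2d2a once, Zbtb4 in 2). The difference in ribosomal share, -0.845 percentage points, ran from -3.56 to 1.61 with 1 library left out. That in the share of the mitochondrial list ran from -0.00856 to 0.000279. The difference in genes with 10 or more counts, -219, turned to 33.7 when libraries were thinned to 42654 counts outside ribosomal features (exact permutation p = 0.75). The B cell median, 0.54, was -0.60 with the ribosomal features removed, -0.51 with 10 or more counts required in 5 libraries and -0.30 without duodenal library 2.

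Correlations of deviations from the site mean ran from -0.408 to 0.127 between same-numbered libraries of different sites, with 1 of 9 pairs over 0.1. Between differently numbered ones they ran from -0.355 to 0.472, with 3 of 18 over 0.1. With 3 libraries per site, this cannot show whether same-numbered libraries share an animal or day, which the labels do not state. With the replicate number as a block, 0 genes passed in all 4 comparisons, and 34, 15, 79 and 105 had an unadjusted p under 0.05, in the order main, duodenal against liver, duodenal against celiac and liver against celiac. Intervals were wide, with 44 of 1038 genes inside a log2 fold change of 1. Libraries were shallow and also differed beyond counting error, and the part of each in this width was not tested.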

Other observations

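Some features varied less between the 9 libraries than the total count, which differed 4.13-fold with celiac library 3 included. Of 58 features with a mean of 100 or more counts, 9 varied less than 3-fold. Among them Cx3cr1, a fractalkine receptor of myeloid cells, had 202, 233 and 198 counts in duodenal, 251, 303 and 421 in liver and 176, 252 and 219 in celiac libraries. Atg7, an autophagy enzyme, had 134 to 327 counts, the highest in celiac library 3, the deepest. Tmem170 varied 3.28-fold, from 118 to 387 counts with the same library highest, and the 27 pull-downs of other sites had 127 to 495. The log2 fold changes of Cx3cr1, Atg7 and Tmem170 were -0.19, -0.14 and -0.44. All genes in these paragraphs were chosen after their values were seen.

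Uty, a gene of the Y chromosome, had 23 to 232 counts in the 9 libraries, whereas Ddx3y, Eif2s3y and Kdm5d, which lie on the same chromosome, had 0 to 5, 0 to 4 and 0 to 8. In the isotype library they had 1335, 5, 1 and 52 counts.

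Some libraries, 1 or several for a given gene, held higher counts of genes of other tissues than the rest. Ttn, the giant protein of striated muscle, had 53, 143 and 1 counts in duodenal, 167, 1 and 4 in liver and 1, 4 and 92 in celiac libraries. Mbp, a myelin protein, had 48 counts in liver library 2, 2 in liver library 1 and 0 in the other 7. Chga, of neuroendocrine cells, had 57 counts in duodenal library 3 against 1 to 24 in the others. Pancreatic acinar genes summed to 14.5 to 71.1 CPM in duodenal, 2.61 to 26.6 in liver and 48.7 to 98.3 in celiac libraries.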
